A study of Mus musculus with 88 samples.

Results

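Messenger RNA of the glycoproteins, proteoglycans and laminins of the extracellular matrix was followed in whole hearts of mice that develop coronary artery disease and myocardial infarction without surgery, and of their controls. The family was taken as a list of 43 genes. A gene counted as measured where the platform annotation gave a probe set that gene's symbol alone, and its brightest such probe set on average was used. Of the 43 genes, 36 were measured among 8252 genes in all: 6 of 9 matricellular proteins, 2 adhesive glycoproteins, 7 of 10 genes of elastic fibres and calcification control, 6 of 7 small leucine-rich and large proteoglycans, 10 genes of the basement membrane, and 5 cell-surface molecules. Spp1, Thbs1, Thbs4, Fbn1, Fbln5, Efemp2 and Prelp were not analysed here. The list was drawn up with earlier results of these data known.

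The extracellular matrix of the heart is a network of fibrillar collagens, elastic fibres and basement membranes that transmits the force of the muscle cells. Glycoproteins such as fibronectin link cells to that network through integrins, proteoglycans hold water and growth factors and set the width of collagen fibrils, and laminins with nidogens form the sheet that encloses each cardiomyocyte and capillary. Matricellular proteins such as periostin and tenascin-C are scarce in the healthy adult heart, are produced by activated fibroblasts after infarction, and regulate how cells attach and how collagen is laid down.

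The diseased mice, called dKO, were SR-BI-/- apoE-/-, and the controls, called HET, were SR-BI+/- apoE-/-, so that every mouse in every group lacked apolipoprotein E. SR-BI, the product of Scarb1, takes up cholesterol from high-density lipoprotein. Hearts were taken on days 21, 31 and 43 of life from mice fed chow or food with probucol, an antioxidant that lowers cholesterol. In age order the chow groups numbered 10, 10 and 12 for dKO and 9, 10 and 9 for HET, and the probucol groups 6, 8 and 6 for dKO and 3, 3 and 2 for HET, with a separate mouse and array for each of the 88 hearts. By the design text, dKO mice on chow showed no sign of coronary disease at 21 days, had developed heart failure and small infarcts by 31 days and large infarcts by 43 days, an age that many of them do not reach, while HET mice on chow showed none of this. The Scarb1 and Apoe alleles were those of the whole animal, and the tissue was the whole heart, infarcted and spared muscle together.

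Levels are given as log2 signal relative to the median of the same array, and a difference as a log2 value ± its standard error with limma's p adjusted over all 8252 genes by Benjamini and Hochberg. Scarb1 had a mean of 2.25, 2.08 and 2.10 in HET and 0.88, 1.01 and 1.06 in dKO chow hearts at 21, 31 and 43 days. The place of its probe set within the gene, inside or outside the deletion, was not analysed here. The median signal of an array ran from 27.8 to 75.4. The arrays fell into sets of 68 and 20 by a pattern of residual signal, and among chow hearts the set of 20 included 6 of 10 dKO at 21 days and 0 at the later ages, and 2 of 9, 6 of 10 and 3 of 9 HET in age order. The 5 arrays that correlated least with the others of their group were HET chow replicate 2 at 21 days, replicate 7 at 31 days and replicates 1 and 9 at 43 days, and dKO chow replicate 3 at 21 days. They are called below the arrays that stood apart, but their number was set by choice and not by a gap. HET chow replicate 1 at 43 days had a mean correlation of 0.914, and the next array, dKO probucol replicate 3 at 31 days, 0.915. For dKO chow replicate 2 at 21 days, the age in the description conflicts with the one in the other labels. In whole-heart RNA, fewer cells of a type and less RNA per cell cannot be told apart.

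At 43 days, with large infarcts in the dKO hearts, the matrix genes moved in both directions on chow. Tenascin-C, periostin, versican, Cd44, nidogen-2 and fibulin-2 were the largest rises, from 3.60-fold to 11.5-fold, and vitronectin, the glypicans Gpc1 and Gpc3, and osteoglycin were the largest falls. Of the 36 measured members, 16 were higher and 7 lower in dKO hearts, or 44.4% and 19.4%, where 15.3% and 26.0% of all genes were called. The median difference of the members was 0.12, against -0.16 over all genes. Every dKO heart lay above every HET heart for 9 members and below for 2 members, where 3.88% and 2.70% of all genes were separated in this way. At 31 days 8 members were higher and 6 lower (all genes 6.69% and 16.3%), and at 21 days 2 were higher and 1 was lower (all genes 2.38% and 0.800%).

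The balance of rises and falls depended on the scaling. With signals as deposited, without centring, the median difference of all genes at 43 days was 0.19, and the members split into 21 higher and 3 lower. At 31 days the split was 13 higher and 2 lower as deposited, with a median of 0.19 over all genes against -0.13 after centring, and 9 and 4 after quantile normalization. At 21 days it was 0 and 1 as deposited and 0 and 0 after quantile normalization. The shares of all genes called under these alternatives are not given here or below. Such splits therefore show how the counts moved with the scaling, and not that the members stood out from all genes. Of the 23 members called at 43 days, 18 were called in the same direction in every alternative in which they were tested, and Fbln1, Gpc3, Lama2, Lama4 and Lamb2 were not. Of the 14 called at 31 days this held for 5, Fbln2, Fn1, Lamb2, Ogn and Postn, and of the 3 at 21 days for 0.

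**Figure D1:**
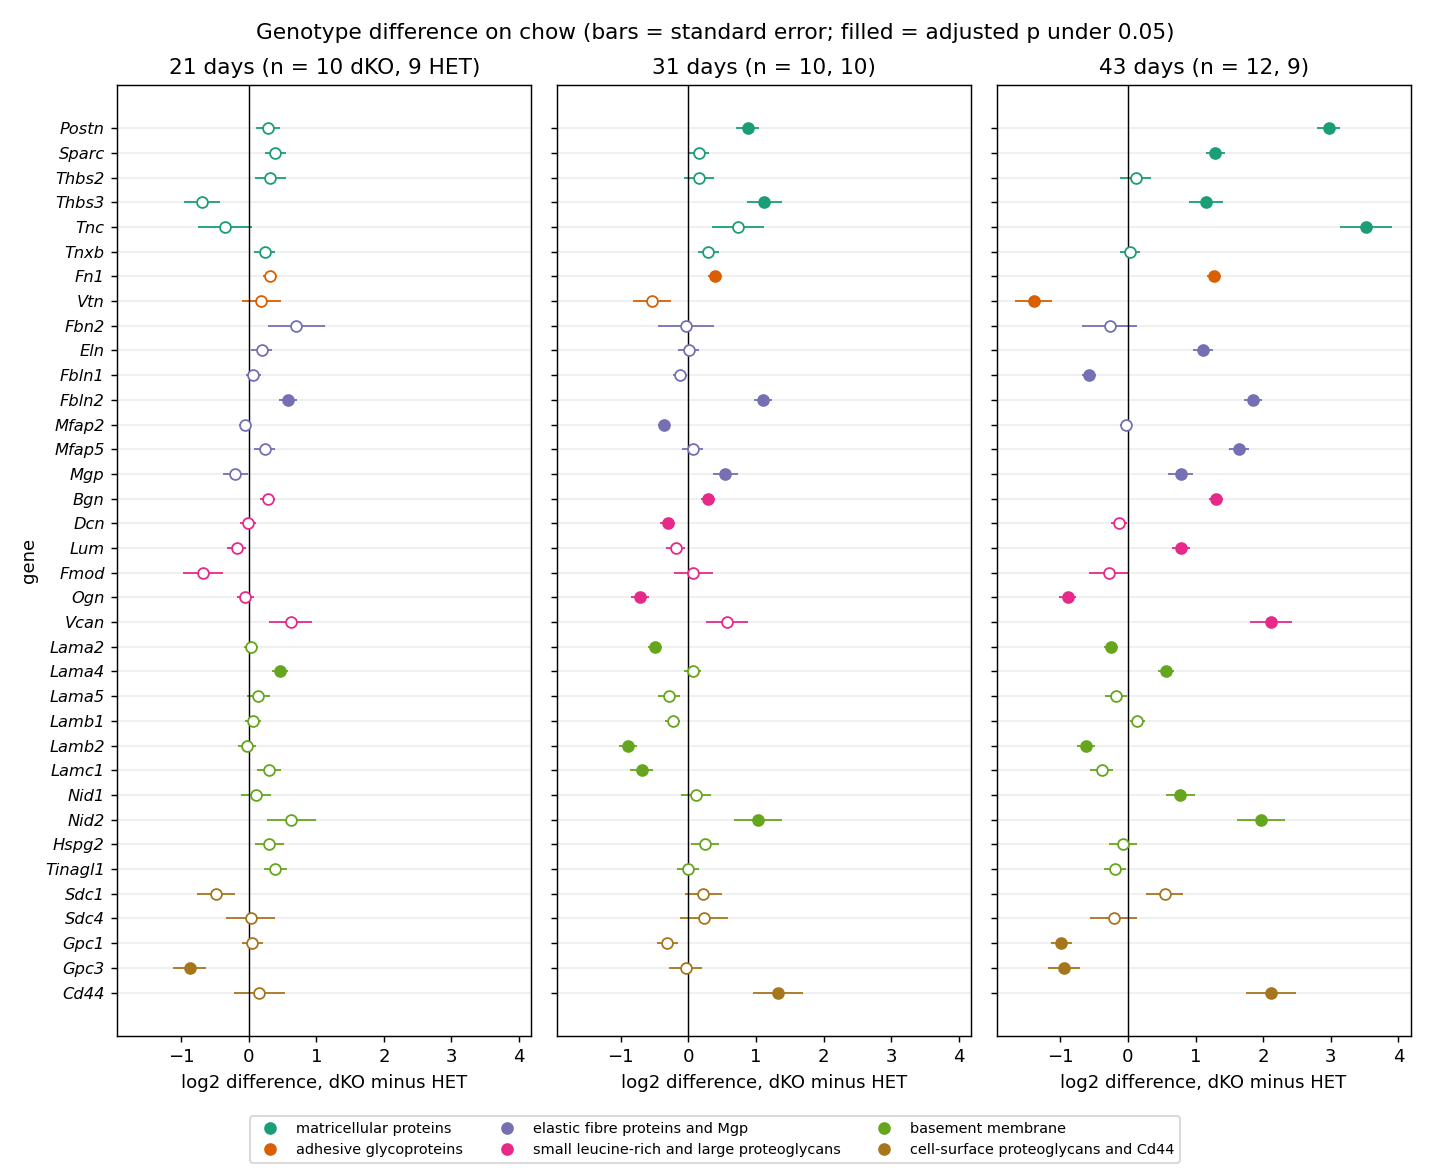
Log2 difference between dKO and HET hearts on chow for each of the 36 measured genes at 21, 31 and 43 days, with the standard error as bars and filled points where the adjusted p was under 0.05. The number of filled points goes from 3 at 21 days to 14 at 31 days and 23 at 43 days, and Tnc at 3.52 and Vtn at -1.39 mark the ends of the range at 43 days.

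Among the matricellular proteins, 4 of 6 were higher in dKO hearts at 43 days and none lower (all genes 15.3% and 26.0%). Tenascin-C, a large glycoprotein that loosens the attachment of cells, lay at 0.056 to 2.70 (median 1.60) in the dKO hearts and at -3.23 to -0.87 (median -1.56) in the HET hearts. Every dKO heart was above every HET heart, and 1 HET array was at the signal floor, so the size of the difference is understated there. Tnc differed by 3.52 ± 0.38 (adjusted p = 7.98e-13), or 11.5-fold. The dKO median went from -2.05 at 21 days to -0.36 at 31 days, where the difference of 0.73 ± 0.39 (adjusted p = 0.168) did not pass the threshold. The HET medians stayed between -1.59 and -1.29.

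Periostin, a secreted protein of activated fibroblasts that supports collagen cross-linking, was already higher at 31 days. Postn lay at 3.82 to 4.98 (median 4.19) in dKO hearts at 31 days against 2.63 to 4.23 (median 3.45) in HET hearts, groups that overlapped. At 43 days it reached 5.19 to 6.17 (median 5.70) against 2.37 to 3.25 (median 2.84), with no overlap. The differences were 0.88 ± 0.18 (adjusted p = 1.09e-04) and 2.97 ± 0.17 (adjusted p = 2.46e-26), or 1.84-fold and 7.84-fold. At 21 days the medians were 3.82 and 3.39 and the difference of 0.29 ± 0.18 (adjusted p = 0.415) did not pass.

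Sparc, a collagen-binding protein needed for fibril assembly, was separated from the controls at 43 days. The dKO hearts lay at 5.41 to 6.02 (median 5.68) and the HET hearts at 3.67 to 5.08 (median 4.41), with no overlap and a difference of 1.29 ± 0.14 (adjusted p = 1.27e-12). The dKO medians were 5.35 at 21 days and 5.41 at 31 days, and those of HET hearts 5.02 and 5.38, so the HET level at 43 days was the lowest of these. Thbs3, a thrombospondin, was 2.18-fold higher at 31 days (1.12 ± 0.26, adjusted p = 6.96e-04) and 2.23-fold higher at 43 days (1.16 ± 0.25, adjusted p = 1.10e-04). Its 31-day difference was 0.44 (adjusted p = 0.492) within the larger array set. Thbs2, which restrains vessel growth, differed by 0.11 ± 0.22 at 43 days and tenascin-X (Tnxb), which spaces collagen fibrils, by 0.028 ± 0.15, and neither passed. Tnxb lay at 1.09 to 2.64 (median 1.88) in dKO and 0.78 to 2.36 (median 1.99) in HET hearts.

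**Figure D2:**
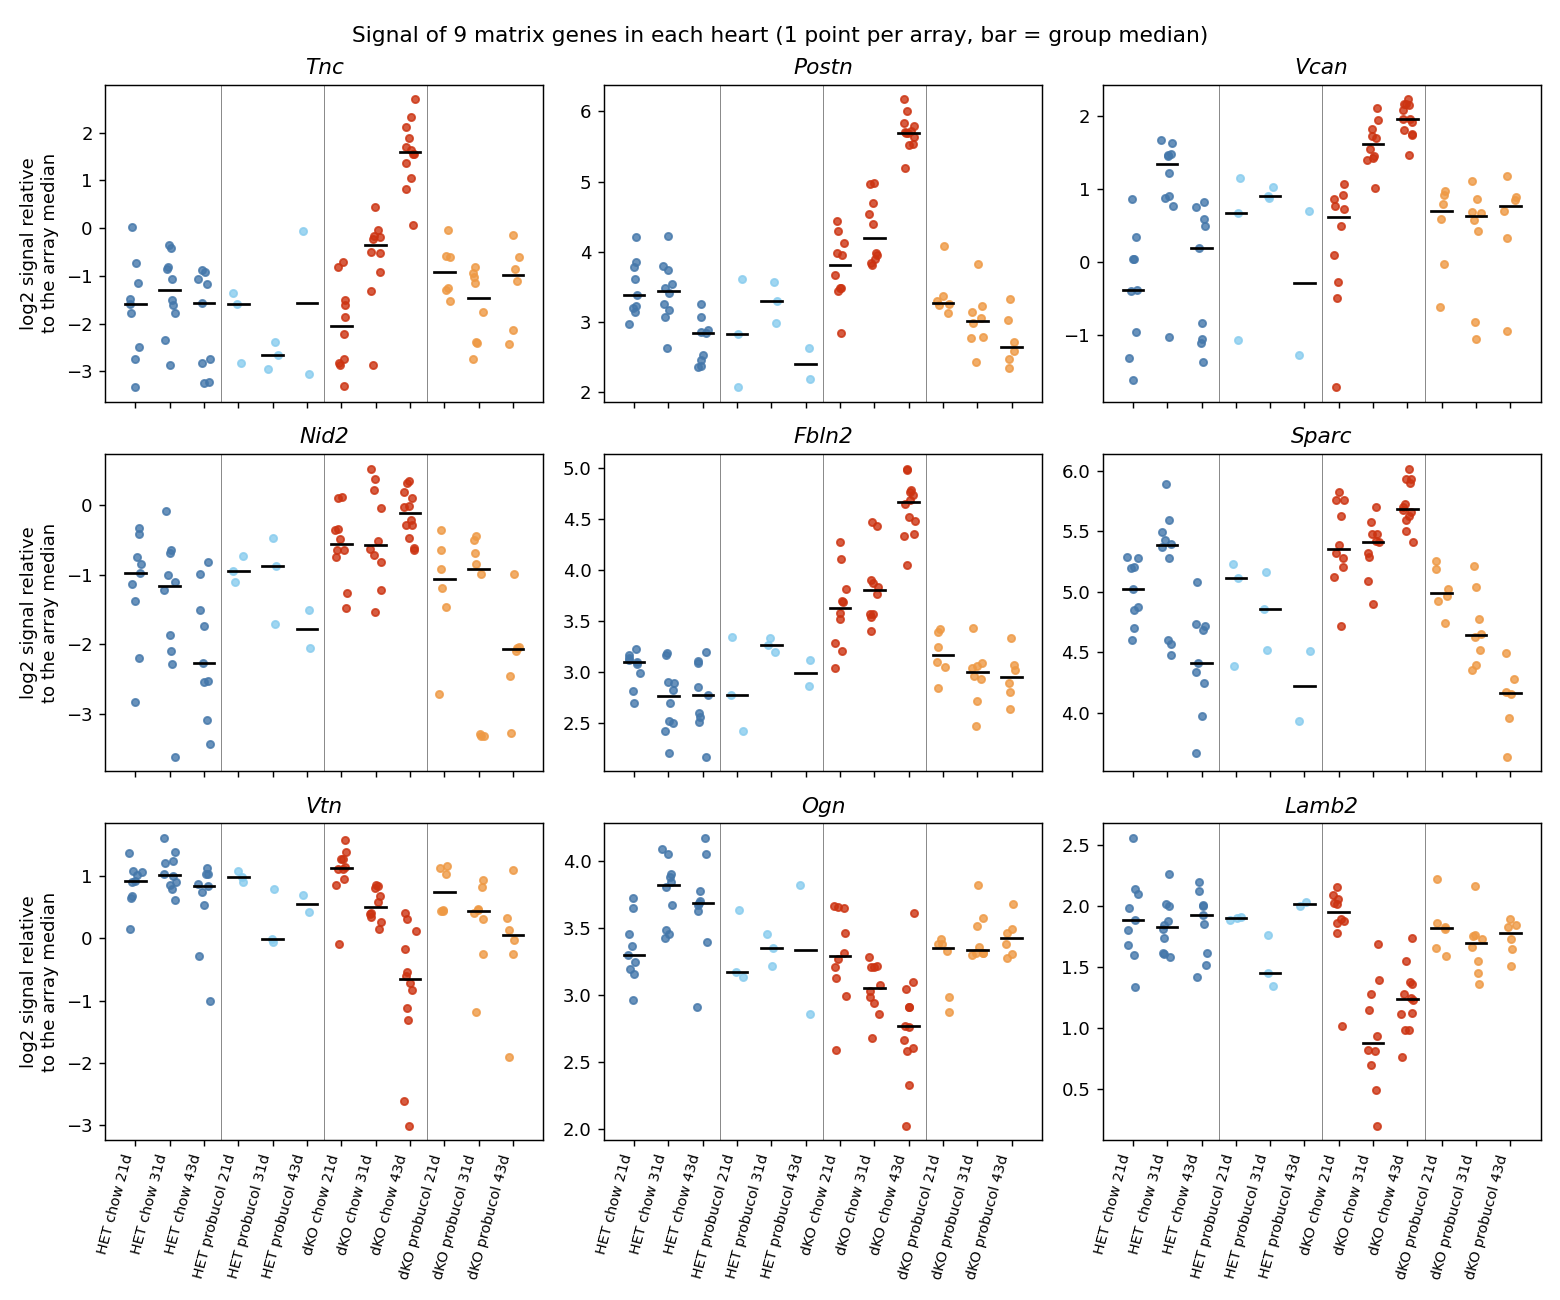
Log2 signal relative to the array median of 9 matrix genes in each of the 88 hearts, with 1 point per array and a bar at each group's median, in columns by genotype, diet and age. Tnc, Postn, Vcan, Nid2, Fbln2 and Sparc are highest in dKO chow hearts at 43 days, with a Postn median of 5.70, while Vtn and Ogn are lowest there and Lamb2 is lowest in dKO chow hearts at 31 days.

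The adhesive glycoproteins went in opposite directions. Fibronectin (Fn1), the integrin-binding scaffold of provisional matrix, lay at 2.95 to 3.53 (median 3.29) in dKO and 1.72 to 2.31 (median 2.02) in HET hearts at 43 days, with no overlap. It was higher by 1.27 ± 0.10 (adjusted p = 3.52e-19) on day 43 and by 0.39 ± 0.10 (adjusted p = 0.00262) on day 31. At 21 days the difference of 0.32 ± 0.10 (adjusted p = 0.0687) did not pass, with medians of 2.65 and 2.17. Vitronectin (Vtn), an adhesive protein of plasma and matrix, lay at -3.02 to 0.40 (median -0.65) in dKO and -1.01 to 1.14 (median 0.85) in HET hearts at 43 days and was lower, with a difference of -1.39 ± 0.27 (adjusted p = 1.71e-05). The groups overlapped widely, as the dKO median lay above the lowest HET heart, and the lowest 2 dKO hearts lay far below the other 10. At 31 days the medians were 0.50 and 1.02 and the difference of -0.54 ± 0.28 (adjusted p = 0.159) did not pass.

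Of the 7 genes of elastic fibres and calcification control, 4 were higher and 1 lower at 43 days (all genes 15.3% and 26.0%). Fibulin-2 (Fbln2), which binds elastin and fibronectin, was the 1 member whose genotype difference passed at all 3 ages in the same direction. Its range was 3.04 to 4.28 (median 3.63) in dKO and 2.70 to 3.23 (median 3.10) in HET hearts at 21 days, and the groups overlapped. At 31 days it was 3.41 to 4.47 (median 3.81) against 2.21 to 3.19 (median 2.77), and at 43 days 4.05 to 5.0 (median 4.67) against 2.17 to 3.20 (median 2.78). From 31 days on, every dKO heart was above every HET heart, and at 31 days this held for 1 member above and 1 below (all genes 0.824% and 0.388%). The differences were 0.58 ± 0.14 (adjusted p = 0.00603), 1.10 ± 0.13 (adjusted p = 4.33e-10) and 1.85 ± 0.13 (adjusted p = 2.29e-21). The call at 21 days was lost as deposited (0.37, adjusted p = 0.162), after quantile normalization (0.42, adjusted p = 0.0563) and within either array set.

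Mfap5, a microfibril protein, lay at 3.16 to 4.42 (median 3.81) in dKO and 1.55 to 2.58 (median 2.32) in HET hearts at 43 days, with no overlap. It was higher by 1.64 ± 0.15 (adjusted p = 5.31e-16), while a dimmer second probe set of the gene gave -0.35. Elastin (Eln), the core of the elastic fibre, lay at 4.08 to 4.85 (median 4.51) in dKO and 2.63 to 4.31 (median 3.21) in HET hearts and differed by 1.11 ± 0.15 (adjusted p = 1.30e-09). Those groups overlapped, and the dKO median at 43 days was below its own 5.23 at 21 days. Matrix Gla protein (Mgp), an inhibitor of calcification, was higher by 0.55 ± 0.19 (adjusted p = 0.0248) on day 31 and 0.78 ± 0.18 (adjusted p = 3.07e-04) on day 43. Fibulin-1 (Fbln1), a binding partner of fibronectin and laminin, was lower, with a difference of -0.58 ± 0.11 (adjusted p = 4.75e-06), at 43 days, at 3.09 to 4.17 (median 3.61) in dKO and 3.75 to 4.59 (median 4.18) in HET hearts, which overlapped. As deposited that difference was -0.23 (adjusted p = 0.121). Mfap2, another microfibril protein, was lower, with a difference of -0.36 ± 0.090 (adjusted p = 0.00189), at 31 days, where it lay at 1.15 to 1.75 (median 1.41) in dKO and 1.45 to 2.08 (median 1.75) in HET hearts. That call was lost as deposited (-0.038, adjusted p = 0.877) and within the larger array set (-0.22, adjusted p = 0.300). At 43 days Mfap2 lay at 1.32 to 1.77 (median 1.57) in dKO and 1.32 to 1.87 (median 1.61) in HET hearts, a difference of -0.030 ± 0.089 that became 0.32 as deposited (adjusted p = 0.0347). Fbn2, a fibrillin of developing tissue, was dim and differed by -0.27 ± 0.41 at 43 days, which did not pass.

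Among the proteoglycans, 3 of 6 were higher and 1 was lower at 43 days (all genes 15.3% and 26.0%). Versican (Vcan), the large proteoglycan that binds hyaluronan, lay at 1.45 to 2.22 (median 1.95) in dKO hearts and -1.38 to 0.82 (median 0.19) in HET hearts, with no overlap and a difference of 2.11 ± 0.31 (adjusted p = 1.68e-08). The HET level moved with age as well, with medians of -0.39, 1.33 and 0.19 at 21, 31 and 43 days. Vcan was not separated at 31 days, where dKO hearts lay at 1.01 to 2.10 (median 1.62) and the difference was 0.57 ± 0.31 (adjusted p = 0.189). Biglycan (Bgn), a small proteoglycan of collagen fibrils, lay at 6.19 to 6.68 (median 6.41) in dKO and 4.50 to 5.70 (median 5.09) in HET hearts at 43 days, with no overlap. It was higher by 0.30 ± 0.10 (adjusted p = 0.0291) on day 31 and 1.30 ± 0.10 (adjusted p = 3.94e-19) on day 43. With probe sets averaged the 31-day difference was 0.17 (adjusted p = 0.195). Lumican (Lum), of the same family, was higher by 0.79 ± 0.14 (adjusted p = 1.22e-06) at 43 days.

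Osteoglycin (Ogn), another small leucine-rich proteoglycan, ran the other way. At 31 days it lay at 2.68 to 3.28 (median 3.05) in dKO and 3.43 to 4.09 (median 3.82) in HET hearts, and every dKO heart was below every HET heart. At 43 days it lay at 2.02 to 3.61 (median 2.76) and 2.91 to 4.17 (median 3.69), and the groups overlapped. The differences were -0.71 ± 0.13 (adjusted p = 1.88e-05) and -0.89 ± 0.13 (adjusted p = 8.15e-09). Decorin (Dcn), the close relative of biglycan, lay at 6.16 to 6.75 (median 6.36) in dKO and 5.87 to 7.05 (median 6.61) in HET hearts at 43 days. Its difference was -0.31 ± 0.12 (adjusted p = 0.0476) on day 31 and -0.13 ± 0.12 (adjusted p = 0.392) on day 43 after centring, but 0.013 and 0.22 (adjusted p = 0.935 and 0.015) as deposited, so its direction depended on the scaling. Fibromodulin (Fmod) was dim and differed by -0.29 ± 0.29, which did not pass.

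The basement membrane genes moved in both directions at 43 days, with 3 of 10 higher, 2 lower and a median of -0.12. Over all genes 15.3% were higher and 26.0% lower, with a median of -0.16, so the falls and the median did not stand out. Nidogen-2 (Nid2), which bridges laminin and collagen IV, lay at -0.64 to 0.36 (median -0.12) in dKO and -3.43 to -0.81 (median -2.27) in HET hearts, with no overlap. Its difference was 1.03 ± 0.36 (adjusted p = 0.0278) on day 31 and 1.97 ± 0.35 (adjusted p = 2.51e-06) on day 43. The 31-day call was lost with the array set as a block (0.67, adjusted p = 0.273) and without the 5 arrays that stood apart (0.79, adjusted p = 0.0808). Nidogen-1 (Nid1) lay at -0.45 to 0.58 (median -0.017) in dKO and -1.24 to -0.35 (median -0.71) in HET hearts, which overlapped, and was higher by 0.78 ± 0.22 (adjusted p = 0.00258).

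The laminin chains Lamb2 and Lama2 were lower in dKO hearts at 31 and 43 days, and Lamc1 at 31 days, after centring. Lamb2, the beta-2 chain, lay at 0.20 to 1.69 (median 0.88) in dKO and 1.58 to 2.26 (median 1.83) in HET hearts at 31 days and at 0.76 to 1.74 (median 1.24) and 1.42 to 2.20 (median 1.93) at 43 days, with overlap at both ages. Its differences were -0.89 ± 0.13 (adjusted p = 2.04e-07) and -0.62 ± 0.13 (adjusted p = 4.27e-05), the second of which was -0.28 (adjusted p = 0.0934) as deposited. Lama2, the alpha-2 chain of the muscle basement membrane, lay at 1.28 to 2.30 (median 1.65) in dKO and 1.77 to 2.44 (median 2.18) in HET hearts at 31 days, and at 1.69 to 2.12 (median 1.88) and 1.84 to 2.52 (median 2.17) at 43 days. It differed by -0.49 ± 0.10 (adjusted p = 1.03e-04) on day 31 and by -0.25 ± 0.10 (adjusted p = 0.0315) on day 43. As deposited its 31-day difference was -0.17 (adjusted p = 0.301) and its 43-day difference 0.10 (adjusted p = 0.531), the latter with the sign turned. Lamc1, the gamma-1 chain shared by most laminins, lay at 0.75 to 2.67 (median 1.92) in dKO and 2.03 to 3.20 (median 2.60) in HET hearts at 31 days, and differed by -0.69 ± 0.17 (adjusted p = 0.00185) on day 31 and -0.39 ± 0.17 (adjusted p = 0.0558) on day 43. The 31-day call was lost as deposited (-0.37, adjusted p = 0.116) and within the larger array set (-0.52, adjusted p = 0.140). A dimmer second probe set of Lamc1 gave -0.14 at 31 days.

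Lama4, the alpha-4 chain of vessel walls, was called in the other direction. It lay at 2.65 to 3.48 (median 3.19) in dKO and 2.33 to 3.20 (median 2.64) in HET hearts at 21 days, and at 2.58 to 3.32 (median 3.07) and 2.04 to 2.94 (median 2.46) at 43 days. Its differences were 0.46 ± 0.12 (adjusted p = 0.0172) and 0.56 ± 0.12 (adjusted p = 5.53e-05), and at 31 days 0.062 ± 0.12, which did not pass. A dimmer second probe set of Lama4 gave -0.79 at 43 days, and the mean of both gave -0.11 (adjusted p = 0.555), so the direction of Lama4 rests on the brighter probe set. Of the remaining members, Hspg2 (perlecan, the large heparan sulfate proteoglycan), Lamb1, Lama5 and Tinagl1 differed by -0.078 ± 0.20, 0.13 ± 0.11, -0.17 ± 0.16 and -0.19 ± 0.16 at 43 days, and none passed. The dimmer probe sets of Lamb1 and Lama5 gave 0.99 and -0.71, and with probe sets averaged both passed, Lamb1 at 0.56 (adjusted p = 1.98e-06) and Lama5 at -0.44 (adjusted p = 0.0119). As deposited Lamb1 was 0.48 (adjusted p = 3.86e-05). Hspg2 lay at 0.86 to 4.14 (median 3.63) in dKO and 2.93 to 4.42 (median 3.36) in HET hearts.

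At the cell surface, Cd44, the receptor for hyaluronan, was higher and the glypicans were lower in dKO hearts. Cd44 lay at -3.29 to -0.59 (median -0.85) in dKO and -3.17 to -1.48 (median -2.62) in HET hearts at 31 days and at -1.71 to 0.086 (median -0.33) and -3.34 to -0.77 (median -2.90) at 43 days, with overlap. Its differences were 1.32 ± 0.37 (adjusted p = 0.00553) and 2.11 ± 0.37 (adjusted p = 1.20e-06). Cd44 was dim, with 2 of 9 HET arrays at the floor at 43 days, and its other 2 probe sets were at the floor on most arrays. Its 31-day call was lost with the floor at the 30th percentile (0.28, adjusted p = 0.138) and with the probe sets averaged (0.19, adjusted p = 0.522). Gpc1, a heparan sulfate proteoglycan anchored in the membrane, lay at 1.88 to 3.22 (median 2.97) in dKO and 3.26 to 4.36 (median 3.88) in HET hearts at 43 days, and Gpc3 at -1.05 to 0.032 (median -0.28) and 0.23 to 0.92 (median 0.53). For both glypicans every dKO heart was below every HET heart, and the differences were -0.99 ± 0.15 (adjusted p = 9.09e-08) and -0.94 ± 0.24 (adjusted p = 7.46e-04). The Gpc3 difference was -0.60 (adjusted p = 0.0788) as deposited. Gpc3 was also lower at 21 days, at -1.96 to 0.49 (median -0.0070) against -0.30 to 0.82 (median 0.71), with a difference of -0.87 ± 0.25 (adjusted p = 0.0297) that was -0.78 (adjusted p = 0.106) in the fit with a block for the array set. The syndecans Sdc1 and Sdc4, which are transmembrane heparan sulfate proteoglycans, differed by 0.54 ± 0.27 and -0.21 ± 0.35, and neither passed. With both probe sets of Sdc1 averaged its difference was 1.11 (adjusted p = 1.83e-06). Sdc4 lay at -1.36 to 1.88 (median 1.0) in dKO and -1.11 to 1.83 (median 1.48) in HET hearts.

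The promoters of the members that moved most at 43 days are shown here, as the stretches at which their transcription starts. RefSeq promoters (assembly GRCm38.p6, 250 bases before to 50 after each gene start) matched 25 of the 36 measured members, with 30 promoters. The largest 3 rises with a promoter were Tnc (chr4:64046966-64047265, minus strand), Postn (chr3:54360857-54361156, plus strand) and Cd44 (chr2:102901616-102901915, minus strand), and the largest 3 falls were Vtn (chr11:78498870-78499169, plus strand), Gpc3 (chrX:52613925-52614224, minus strand) and Ogn (chr13:49607765-49608064, plus strand). Capitals mark matches on either strand to TGANTCA (bound by AP-1), GGAATG (bound by TEAD factors) or TATAAA (the TATA box), where overlapping matches run together.
Tnc: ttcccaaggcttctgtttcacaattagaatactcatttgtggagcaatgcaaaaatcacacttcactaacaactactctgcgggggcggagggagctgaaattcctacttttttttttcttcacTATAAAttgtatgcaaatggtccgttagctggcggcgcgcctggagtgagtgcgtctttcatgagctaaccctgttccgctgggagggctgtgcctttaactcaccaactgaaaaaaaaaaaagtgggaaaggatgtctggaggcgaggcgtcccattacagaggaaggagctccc
Postn: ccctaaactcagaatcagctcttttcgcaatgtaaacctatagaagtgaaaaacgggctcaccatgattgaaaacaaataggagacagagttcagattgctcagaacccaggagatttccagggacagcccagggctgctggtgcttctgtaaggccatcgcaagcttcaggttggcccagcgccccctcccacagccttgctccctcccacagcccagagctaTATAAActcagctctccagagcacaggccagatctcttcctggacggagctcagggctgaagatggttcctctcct
Cd44: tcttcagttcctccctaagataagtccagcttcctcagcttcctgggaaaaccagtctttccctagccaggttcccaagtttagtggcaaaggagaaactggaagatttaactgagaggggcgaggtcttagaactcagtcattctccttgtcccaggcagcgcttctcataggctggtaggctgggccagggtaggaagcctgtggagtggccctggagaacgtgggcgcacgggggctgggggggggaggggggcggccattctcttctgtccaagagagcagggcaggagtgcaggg
Vtn: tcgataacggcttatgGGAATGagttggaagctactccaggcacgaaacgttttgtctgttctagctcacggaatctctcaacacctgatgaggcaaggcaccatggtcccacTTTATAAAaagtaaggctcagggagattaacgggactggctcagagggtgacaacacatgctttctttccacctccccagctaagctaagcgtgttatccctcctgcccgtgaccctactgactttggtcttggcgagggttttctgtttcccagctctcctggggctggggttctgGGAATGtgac
Gpc3: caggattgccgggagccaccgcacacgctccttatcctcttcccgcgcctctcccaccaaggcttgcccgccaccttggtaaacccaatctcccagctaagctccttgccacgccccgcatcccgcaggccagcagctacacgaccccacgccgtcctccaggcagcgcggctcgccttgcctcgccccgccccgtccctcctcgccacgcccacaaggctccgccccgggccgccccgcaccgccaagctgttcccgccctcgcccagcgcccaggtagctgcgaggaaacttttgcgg
Ogn: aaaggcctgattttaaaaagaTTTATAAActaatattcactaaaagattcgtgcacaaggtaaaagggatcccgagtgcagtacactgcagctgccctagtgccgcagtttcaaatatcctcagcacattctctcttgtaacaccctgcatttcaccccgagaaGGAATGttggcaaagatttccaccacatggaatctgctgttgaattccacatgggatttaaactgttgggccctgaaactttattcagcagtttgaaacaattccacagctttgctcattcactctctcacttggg

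Among these promoters, Postn held TATAAA with its first base at position -26 relative to the gene start, and Tnc held it at position -126. For Tnc a second, overlapping promoter held the same match, and for Postn a second promoter held none. Vtn and Ogn held overlapping TATAAA matches and GGAATG, while Cd44 and Gpc3 held none of the 3 motifs. Over all member promoters, TGANTCA was in 2 of 30, GGAATG in 5 of 30 and TATAAA in 6 of 30, or 6.67%, 16.7% and 20%. The shares over all 32851 promoters of that length were 7.81%, 14.7% and 13.6%. TATAAA was thus present in the promoters of members that rose (Tnc, Postn) and of members that fell (Vtn, Ogn).

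The change of the genotype difference between ages was tested directly. From 21 to 43 days it passed upward for 15 members and downward for 6 (all genes 8.34% and 18.1%). Tnc changed by 3.87 ± 0.55 (adjusted p = 3.08e-08), Postn by 2.68 ± 0.25 (adjusted p = 1.60e-14), Cd44 by 1.96 ± 0.53 (adjusted p = 0.00285) and Vcan by 1.49 ± 0.45 (adjusted p = 0.00757). The Cd44 call was lost with probe sets averaged (0.24, adjusted p = 0.560) and within the larger array set (1.08, adjusted p = 0.332). Downward changes included Vtn (-1.58 ± 0.40, adjusted p = 0.00126), Gpc1 (-1.04 ± 0.22, adjusted p = 1.38e-04) and Ogn (-0.84 ± 0.18, adjusted p = 1.96e-04). Each of these calls was lost in some alternative. As deposited Gpc1 was -0.48 (adjusted p = 0.0798) and Ogn -0.28 (adjusted p = 0.280). Within the larger array set Vtn was -1.24 (adjusted p = 0.122) and Ogn -0.48 (adjusted p = 0.158). As deposited the split was 20 upward and 1 downward, and within the larger array set it was 12 and 1. From 21 to 31 days the change passed for 3 members upward and 4 downward (all genes 4.16% and 13.2%), with Lamb2 at -0.87 ± 0.19 (adjusted p = 0.00124) and Lamc1 at -0.99 ± 0.25 (adjusted p = 0.00397). As deposited that split was 10 and 0, and within the larger array set 1 and 0. With probe sets averaged Lamc1 was -0.35 (adjusted p = 0.289).

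In HET hearts on chow, some matrix genes changed with age. Between 21 and 43 days, 5 members fell and none rose (all genes 0.969% lower and 0.497% higher). Elastin showed the largest fall: it lay at 4.21 to 5.91 (median 5.13) at 21 days and at 2.63 to 4.31 (median 3.21) at 43 days, a difference of -1.70 ± 0.16 (adjusted p = 1.85e-13). The lowest heart at 21 days was at 4.21 and the highest at 43 days at 4.31. Postn fell by 0.75 ± 0.19 (adjusted p = 0.018), Sparc fell by 0.57 ± 0.15 (adjusted p = 0.0322), Mfap2 fell by 0.41 ± 0.095 (adjusted p = 0.011) and Lamb1 fell by 0.45 ± 0.12 (adjusted p = 0.0313). As deposited, 6 members rose and 1 fell, after quantile normalization 3 rose and 5 fell, and Eln was called in both. Between 21 and 31 days, Vcan (1.42 ± 0.32, adjusted p = 0.00298), Bgn (0.50 ± 0.11, adjusted p = 0.00186) and Ogn (0.42 ± 0.13, adjusted p = 0.0394) were higher and Thbs3 (-1.16 ± 0.26, adjusted p = 0.00329) and Mgp (-0.92 ± 0.19, adjusted p = 0.0013) lower (all genes 4.28% and 1.58%). Of those 5 calls, 1 (Vcan) was also made within the larger array set alone and 0 within the smaller, where the differences of the 5 genes kept their signs.

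**Figure D3:**
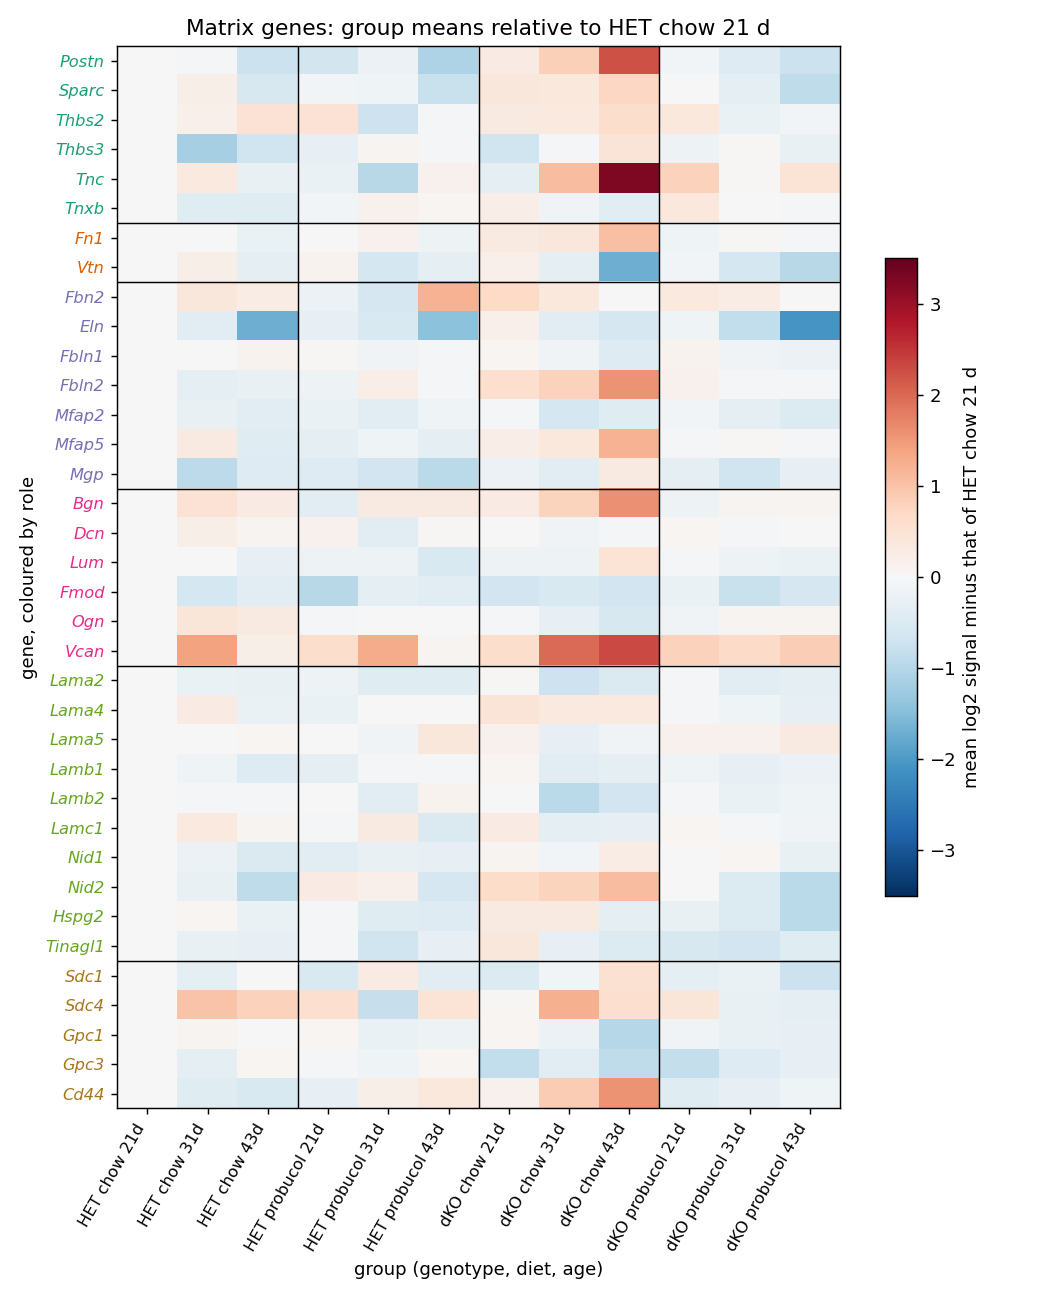
Mean log2 signal of the 36 measured genes in each of the 12 groups, minus the mean of HET chow hearts at 21 days, with red above and blue below that reference and the genes ordered and coloured by role. The strongest red is Tnc in dKO chow hearts at 43 days, and the Eln row is deepest blue at 43 days in both HET groups and in dKO probucol hearts.

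Probucol was compared with chow within the dKO genotype. At 43 days 17 of the 36 members were lower and 3 higher on probucol (all genes 13.1% and 16.8%), with a median of -0.62 against 0.11 over all genes. Periostin, tenascin-C, nidogen-2, Cd44, fibulin-2 and Sparc were the largest falls, and every probucol heart was below every chow heart for 11 members (all genes 5.87%) and above for 0 (all genes 4.81%). This comparison and the genotype comparison at 43 days share the 12 dKO chow hearts, so the values of both are given side by side and are not independent. As deposited, 23 members were lower and 0 higher, where the share of all genes is not given. Of the 20 calls, 13 held in every alternative in which they were tested.

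Postn lay at 2.35 to 3.32 (median 2.65) in the 6 dKO hearts on probucol at 43 days, against 5.19 to 6.17 (median 5.70) on chow and 2.37 to 3.25 (median 2.84) in HET hearts on chow. The probucol hearts were all below the dKO chow hearts and overlapped the HET range. The difference from dKO chow was -2.96 ± 0.20 (adjusted p = 1.18e-22), where genotype had given 2.97. Tnc lay at -2.43 to -0.14 (median -0.98) and differed by -2.78 ± 0.43 (adjusted p = 1.38e-07), against 3.52 for genotype. Nid2 lay at -3.28 to -0.99 (median -2.07) and differed by -2.02 ± 0.40 (adjusted p = 2.51e-05), against 1.97. Both were below every dKO chow heart of that age.

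Of the other matricellular and adhesive genes, Sparc, Fn1 and Thbs2 also fell. Sparc lay at 3.64 to 4.49 (median 4.16) and fell by 1.61 ± 0.16 (adjusted p = 6.36e-14), and Fn1 lay at 1.80 to 2.47 (median 2.18) and fell by 1.11 ± 0.11 (adjusted p = 1.08e-13), each below every dKO chow heart. Thbs2 fell by 0.70 ± 0.25 (adjusted p = 0.026), while Thbs3 at -0.71 ± 0.29 and Tnxb at 0.32 ± 0.17 did not pass. Vtn lay at -1.91 to 1.10 (median 0.053) and its difference of 0.74 ± 0.31 (adjusted p = 0.0623) did not pass.

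Of the elastic fibre genes, Fbln2 lay at 2.64 to 3.34 (median 2.96) on probucol and fell by 1.65 ± 0.15 (adjusted p = 8.39e-16). Eln lay at 2.76 to 3.27 (median 3.09) and fell by 1.48 ± 0.17 (adjusted p = 9.92e-12), and Mfap5 lay at 2.31 to 2.82 (median 2.53) and fell by 1.28 ± 0.17 (adjusted p = 1.51e-09). For all 3 genes no probucol heart reached the lowest dKO chow heart. Mgp fell by 0.62 ± 0.21 (adjusted p = 0.0168). Fbln1 differed by 0.26 ± 0.12, Mfap2 by -0.033 ± 0.10 and Fbn2 by -0.0058 ± 0.46, and none of these passed.

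Among the proteoglycans, Bgn lay at 4.61 to 5.09 (median 4.95) and fell by 1.5 ± 0.12 (adjusted p = 3.97e-19), Vcan lay at -0.96 to 1.18 (median 0.77) and fell by 1.45 ± 0.35 (adjusted p = 6.04e-04), and Lum fell by 0.72 ± 0.15 (adjusted p = 9.54e-05). Osteoglycin was higher on probucol, at 3.27 to 3.67 (median 3.42), a difference of 0.66 ± 0.14 (adjusted p = 1.43e-04) that was 0.27 (adjusted p = 0.166) as deposited. Dcn and Fmod, at 0.049 ± 0.13 and 0.076 ± 0.32, did not pass, and Dcn was -0.34 (adjusted p = 7.90e-04) as deposited.

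In the basement membrane, Hspg2 fell by 0.64 ± 0.23 (adjusted p = 0.0267), a call lost with only the groups compared in the fit (adjusted p = 0.117) and with the replicate number as a block (-0.55, adjusted p = 0.0845). Lama4 fell by 0.62 ± 0.13 (adjusted p = 1.10e-04), although the mean of both Lama4 probe sets gave -0.10 (adjusted p = 0.683). Lamb2 lay at 1.51 to 1.90 (median 1.78) and was higher by 0.51 ± 0.15 (adjusted p = 0.00399), or 0.13 (adjusted p = 0.582) as deposited. Lama2, Lamc1, Lama5, Lamb1, Nid1 and Tinagl1 ranged from -0.51 to 0.43 and did not pass. With probe sets averaged, Lamb1 was -0.33 (adjusted p = 0.0185), against 0.10 for its brighter probe set, and Lama5 0.60 (adjusted p = 0.0031). At the cell surface Cd44 lay at -3.41 to -0.94 (median -2.32) and fell by 1.71 ± 0.41 (adjusted p = 6.09e-04), or with probe sets averaged -0.51 (adjusted p = 0.0623), and Sdc1 fell by 1.28 ± 0.31 (adjusted p = 5.59e-04). Gpc1 lay at 3.20 to 3.88 (median 3.48) and was higher by 0.69 ± 0.17 (adjusted p = 9.86e-04), or 0.31 (adjusted p = 0.166) as deposited, while Gpc3 at 0.60 ± 0.27 and Sdc4 at -0.94 ± 0.39 did not pass.

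**Figure D4:**
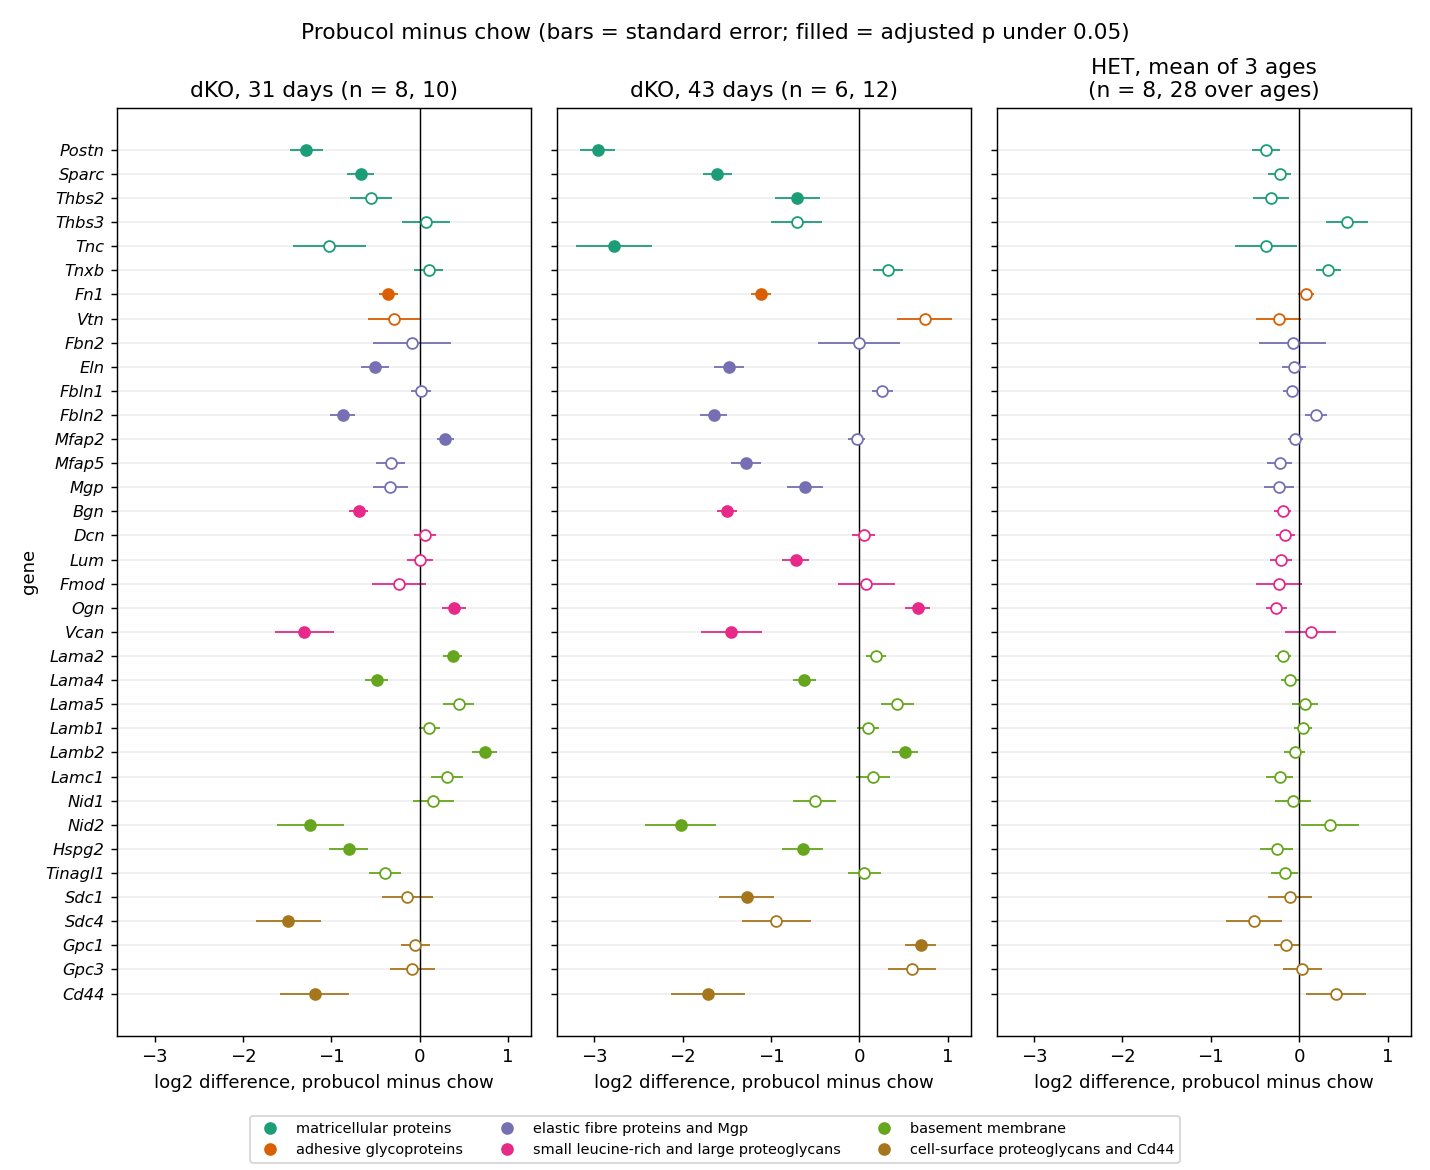
Log2 difference between probucol and chow for the 36 measured genes in dKO hearts at 31 days, in dKO hearts at 43 days and in HET hearts as the mean over the 3 ages, with the standard error as bars and filled points where the adjusted p was under 0.05. In dKO hearts at 43 days 17 genes are filled below 0 and 3 above, with Postn at -2.96, and in HET hearts no gene is filled.

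At 31 days, 12 members were lower and 4 higher on probucol in dKO hearts (all genes 8.35% and 5.74%). Falls included Sdc4 (-1.49 ± 0.37, adjusted p = 0.00299), Vcan (-1.31 ± 0.33, adjusted p = 0.00357), Postn (-1.28 ± 0.19, adjusted p = 1.76e-07) and Nid2 (-1.24 ± 0.38, adjusted p = 0.0174). Sparc, Fn1, Eln, Fbln2, Bgn, Lama4, Hspg2 and Cd44 also fell, by log2 differences from -1.19 to -0.36. Sdc4 lay at -1.17 to 1.10 (median 0.10) on probucol and 0.89 to 2.16 (median 1.54) on chow, which overlapped. Lamb2 was the largest rise, at 1.36 to 2.16 (median 1.70) on probucol and 0.20 to 1.69 (median 0.88) on chow, a difference of 0.73 ± 0.14 (adjusted p = 5.66e-05). Mfap2 (0.29), Ogn (0.39) and Lama2 (0.37) were also higher. As deposited the split was 17 lower and 1 higher. Of the 16 calls, 9 held in every alternative in which they were tested, and Cd44, Eln, Lama4, Nid2, Lama2, Mfap2 and Ogn were lost in some. With probe sets averaged, Lama4 was 0.14 (adjusted p = 0.613), with the sign turned, Eln -0.52 (adjusted p = 0.108) and Cd44 -0.19 (adjusted p = 0.587). With the floor at the 30th percentile, Cd44 was -0.18 (adjusted p = 0.446) and Nid2 -0.51 (adjusted p = 0.0664). As deposited, Lama2, Mfap2 and Ogn were 0.12, 0.043 and 0.14. Groups were separated for Bgn, below, and Ogn, above (all genes 1.49% and 0.364%).

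At 21 days, Fn1 (-0.47 ± 0.12, adjusted p = 0.0305), Bgn (-0.47 ± 0.12, adjusted p = 0.0352) and Tinagl1 (-0.97 ± 0.19, adjusted p = 0.00514) were lower on probucol and no member was higher (all genes 0.727% and 0.0848%). Without the heart whose labels give different ages 1 call was left, with Fn1 at -0.43 (adjusted p = 0.073) and Bgn at -0.41 (adjusted p = 0.121). Within the array sets alone no call was left, with Tinagl1 at -0.69 (adjusted p = 0.464) in the larger and -0.91 (adjusted p = 0.422) in the smaller.

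In HET hearts, probucol was compared with chow as the mean of the 3 ages. By limma, 0 of 36 members passed (all genes 0.291% higher and 1.33% lower). At an unadjusted p under 0.05, which 4.35% and 9.05% of all genes reached upward and downward, Thbs3 (0.54) and Tnxb (0.33) were higher and Postn (-0.37) and Ogn (-0.26) lower, with adjusted p from 0.257 to 0.296. Postn in the HET probucol hearts was 2.83, 3.61 and 2.07 at 21 days, 3.57, 3.30 and 2.99 at 31 days and 2.63 and 2.19 at 43 days. Tnc was -1.36, -2.82 and -1.59 at 21 days, -2.95, -2.38 and -2.65 at 31 days and -0.070 and -3.05 at 43 days. These 8 hearts gave wide standard errors, such as 0.35 for Tnc, so a difference near that size would not have passed.

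The difference between the probucol effects in the genotypes, as the mean of 31 and 43 days, was itself tested. It passed for 13 members whose effect was more negative in dKO hearts and for 4 whose effect was more positive (all genes 7.0% and 13.5%). Cd44 (-2.21 ± 0.51, adjusted p = 6.16e-04), Nid2 (-2.01 ± 0.49, adjusted p = 0.00128), Postn (-1.89 ± 0.24, adjusted p = 3.06e-09) and Fbln2 (-1.64 ± 0.18, adjusted p = 3.14e-11) had the largest negative differences. Ogn (0.90 ± 0.18, adjusted p = 6.09e-05), Lamb2 (0.70 ± 0.18, adjusted p = 0.00238), Gpc1 (0.57 ± 0.21, adjusted p = 0.0456) and Lama2 (0.45 ± 0.14, adjusted p = 0.011) were positive. As deposited 19 were negative and 1 positive. Tnc (-1.45 ± 0.53, adjusted p = 0.0422) and Vcan (-1.26 ± 0.43, adjusted p = 0.0267) depended on single HET probucol hearts. Without replicate 1 at 43 days Tnc was -0.70 (adjusted p = 0.461), and without replicate 2 at 43 days Vcan was -0.77 (adjusted p = 0.329). The Tnc call was also lost without replicate 2 (-1.38, adjusted p = 0.0764) or replicate 3 (-1.45, adjusted p = 0.062) at 31 days. Gpc1 was lost without replicate 1 or 2 at 31 days and without either heart at 43 days, at 0.52 to 0.63 (adjusted p = 0.0644 to 0.168). Mfap5 was lost without either heart at 43 days (-0.64 and -0.61, adjusted p = 0.0539 and 0.084). Lama4 (-0.52 ± 0.17, adjusted p = 0.0169) was lost without replicate 1 at 31 days (-0.46, adjusted p = 0.0527) or at 43 days (-0.49, adjusted p = 0.0614), and Lama2 without replicate 2 at 43 days (0.42, adjusted p = 0.0655). Leaving out each of the 8 HET probucol hearts in turn left 13 to 17 calls. With probe sets averaged per gene, the calls of Cd44 (-0.49, adjusted p = 0.199) and Mfap5 (-0.24, adjusted p = 0.358) were lost. Lama4 was then at 0.017 (adjusted p = 0.970), with the sign turned.

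Genotype was also compared on probucol, as the mean of the 3 ages, and no member passed by limma (all genes 0.0242% higher and 0.0364% lower). At an unadjusted p under 0.05 there were 1 higher and 2 lower (all genes 2.27% and 3.02%): Tnc was at 0.80 ± 0.37 (adjusted p = 0.878), Eln at -0.29 ± 0.14 (adjusted p = 0.94) and Gpc3 at -0.47 ± 0.23 (adjusted p = 0.926). Against HET hearts on chow at 43 days, dKO hearts on probucol showed 0 members past the threshold (all genes 0.170% higher and 0.206% lower), with 1 higher and 7 lower at an unadjusted p under 0.05 (all genes 3.95% and 7.17%). The largest of these differences were Sdc4 (-1.15 ± 0.41, adjusted p = 0.232), Sdc1 (-0.73 ± 0.32, adjusted p = 0.358) and Hspg2 (-0.72 ± 0.24, adjusted p = 0.189). With 6 and 9 hearts, a p that misses the threshold does not show that the groups were alike.

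Genes that work with these members were read from lists of collagens, processing enzymes, receptors, TGF-beta and polysaccharide synthesis, for genotype on chow at 43 days. Over all genes 15.3% were called higher and 26.0% lower in that comparison. Of 7 fibrillar collagens, 4 were higher and 1 lower, with Col5a2 at 3.23 ± 0.17 (adjusted p = 9.61e-30) and Col3a1 at 2.28 ± 0.14 (adjusted p = 2.34e-24). Of 7 basement membrane collagens, 4 were higher and 1 lower, with Col18a1 at 1.18 ± 0.14 (adjusted p = 5.36e-11) and Col4a3 at -0.93 ± 0.33 (adjusted p = 0.0175). Of 10 processing and cross-linking genes, 5 were higher and none lower, led by the cross-linking enzyme Lox at 5.58 ± 0.39 (adjusted p = 9.13e-22) and the prolyl hydroxylase P4ha1 at 0.64 ± 0.22 (adjusted p = 0.0136). Of 18 matrix receptors, 3 were higher and 6 lower. The fibronectin receptor chain Itga5 was at 1.92 ± 0.45 (adjusted p = 3.18e-04) and Sgca, of the sarcoglycan complex of muscle, at -1.60 ± 0.17 (adjusted p = 1.65e-13). Of 7 TGF-beta ligands and latency proteins, 3 were higher and 2 lower, with Ltbp2 at 2.94 ± 0.36 (adjusted p = 9.97e-11) and Tgfb1 at 1.74 ± 0.42 (adjusted p = 4.33e-04). Of 9 genes of hyaluronan and proteoglycan synthesis, 2 were higher and 1 lower, with the precursor enzyme Ugdh at 1.73 ± 0.16 (adjusted p = 2.73e-16) and the hyaluronan synthase Has1 at 1.26 ± 0.37 (adjusted p = 0.00433). On probucol in dKO hearts at 43 days, 13.1% of all genes were called lower and 16.8% higher. There, 4 fibrillar collagens were lower and 1 higher, and 4 basement membrane collagens were lower and 0 higher. Of the matrix receptors 4 were lower and 3 higher. Of the processing, TGF-beta and polysaccharide synthesis genes 4, 3 and 2 were lower and none higher. Among the genes named above, Sgca was at 1.86, Col5a2 was at -3.16, Lox at -4.69, Itga5 at -2.40, Tgfb1 at -3.43 and Ugdh at -1.39, all past the threshold.

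Markers of heart cell types moved with the same groups. Between dKO and HET chow hearts at 43 days, 15.3% of all genes were called higher and 26.0% lower. Of 14 measured macrophage markers, 13 were higher and none lower in dKO than in HET chow hearts at 43 days, and the sum of their signals, in multiples of the array median, was 249 to 443 against 58.4 to 113. On probucol that sum was 77.2 to 96.4 in dKO hearts. At 31 days it was 143 to 352 in dKO and 61.8 to 133 in HET chow hearts. The 10 cardiomyocyte markers were all lower at 43 days, with a sum of 550 to 1031 in dKO, 755 to 1626 in HET and 1156 to 1569 in dKO probucol hearts. The size of these falls depended on the scaling, as array medians at 43 days averaged 59.0 in dKO and 47.3 in HET chow hearts. As deposited, the mean signal of each marker was still lower in dKO hearts, from Ckm (194 against 622) to Actc1 (6692 against 7046). Of 11 fibroblast markers, 4 were higher and 2 lower, with a sum of 95.1 to 137 in dKO, 56.8 to 74.6 in HET and 47.0 to 58.5 in dKO probucol hearts. Most of that sum's difference between the genotypes lay in Col1a1, which was singled out after its values were seen. Without it the sum was 45.4 to 70.2 in dKO, 41.2 to 54.0 in HET and 40.9 to 45.8 in dKO probucol hearts, and the chow groups overlapped. No marker of these 3 lists was at the floor on every array, and 3 of the fibroblast markers are also in the collagen or receptor lists. The log2 ratio of the 3' to the 5' actin probe set, at 31 days on chow, averaged 0.386 in dKO and 0.239 in HET hearts. At 43 days dKO hearts averaged 0.172 on chow and -0.116 on probucol. The part of cell types and RNA quality in the differences of the matrix genes was not tested, beyond the fit with the actin ratio as a covariate, which called 16 members higher and 7 lower for genotype at 43 days.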

How the data were processed

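Total RNA of 88 whole hearts, 1 mouse per array, was extracted with Trizol and labelled with biotin for Affymetrix arrays, per the labels' protocols. The deposited values are linear signal intensities of 12488 probe sets, and the submitters' processing notes name MAS5, with no version; the scaling between arrays is not stated in those sources. Groups follow the genotype, diet and age in the labels. The platform annotation listed 11251 probe sets, of which 10855 carried 1 gene symbol and 396 carried several and were left out. Values under 4.22, the 10th percentile, were set to it, and signals were converted to log2 and centred on each array's median, and the brightest probe set of a gene on average stood for it. No filter on low values was used, so all 36 measured members were tested, and 29 of them were in the upper 60% by mean signal.

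Group means (12) were fitted over the 88 arrays by limma, version 3.58.1, under R, version 4.3.3 (eBayes with an intensity trend), with p adjusted by Benjamini and Hochberg over 8252 genes in each of 14 contrasts, at a threshold of 0.05. The steps were tested on simulated data. p-values measure the spread between these hearts, and precision is limited by how many arrays there were. Described in full were, in each role group, the 3 members with the largest called difference at 43 days and the smallest difference, every member called at 21 days, and every member called lower in dKO hearts at 31 or 43 days, with the 2 largest differences of each pathway list. Members, lists and rules were chosen with earlier results of these data known. Alternatives were signals as deposited, quantile normalization, floors at the 2nd and 30th percentiles, the upper 60% of genes by signal, probe sets averaged per gene, fits of only the groups compared, the replicate number or the array set as a block, the 3' to 5' actin ratio as a covariate, no intensity trend, and leaving out single hearts. The 2 array sets came from 40 genes at each end of the second component of the residuals, list genes excluded, which held 6.71% of the variance. Promoters were read from RefSeq's GRCm38.p6 table; protein sequences were not used here.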

Additional observations from a re-analysis of the deposited data

Results flagged for a closer look

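Single hearts stood away from their group in 16 of 208 sets of values tested with Dixon's criterion, where chance alone gives about 1 in 20. The 208 sets do not cover every member in every group. No flagged heart was a dKO chow heart at 43 days, and whether that group was among those tested is not given. It is therefore not shown to be free of such hearts. On chow in HET hearts at 21 days, replicate 2 was lowest for Mfap5 (1.48) and Nid1 (-2.74). At 31 days replicate 7 was lowest for Vcan (-1.03) and replicate 10 for Nid1 (-2.06), and at 43 days replicate 9 was lowest for Tnxb (0.78) and replicate 3 for Sdc4 (-1.11). Among dKO chow hearts at 21 days, replicate 3 was lowest for Vtn (-0.088), replicate 6 for Lamb2 (1.02) and replicate 8 for Nid1 (-1.03), and at 31 days replicate 6 was lowest for Nid1 (-1.43) and replicate 8 for Cd44 (-3.29). Among dKO probucol hearts at 21 days, replicate 6 was highest for Postn (4.08), replicate 4 lowest for Eln (4.63) and replicate 2 highest for Cd44 (-0.76). At 31 days replicate 5 was highest for Fbln1 (4.35) and replicate 3 lowest for Gpc3 (-2.04). HET chow replicate 2 at 21 days, replicate 7 at 31 days and replicate 9 at 43 days and dKO chow replicate 3 at 21 days are also among the 5 arrays that correlated least with their group over all genes. All these values are log2 signals relative to the array median.

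The genotype difference on chow itself changed between ages by limma's interaction test, given here for the members described in full. From 21 to 43 days it changed upward for Tnc (3.87), Postn (2.68), Cd44 (1.96), Vcan (1.49), Mfap5 (1.40), Nid2 (1.34), Fbln2 (1.26), Bgn (1.02), Fn1 (0.95), Eln (0.92) and Sparc (0.90), and downward for Vtn (-1.58), Gpc1 (-1.04), Ogn (-0.84), Lamc1 (-0.69), Fbln1 (-0.65) and Lamb2 (-0.60), in log2 units. All of these downward changes, and the upward ones of Cd44 and Nid2, were lost in some alternative. The probucol effect, as the mean of 31 and 43 days, differed between dKO and HET hearts, negatively for Cd44 (-2.21), Nid2 (-2.01), Postn (-1.89), Fbln2 (-1.64), Tnc (-1.45), Vcan (-1.26), Eln (-1.05), Bgn (-1.01), Sparc (-0.85), Fn1 (-0.84), Mfap5 (-0.62) and Lama4 (-0.52), and positively for Ogn (0.90), Lamb2 (0.70), Gpc1 (0.57) and Lama2 (0.45). The first of these tests shares the 43-day chow hearts of both genotypes with the second.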

How the results depend on the processing

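Counts of called members at 43 days, for genotype (23) and for probucol in dKO hearts (20), at 31 days for probucol (16) and for the difference of probucol effects (17) stayed within 1.5 times of the main count in every alternative; the counts of 0 stayed 0. Other counts moved. For genotype at 21 days (3 called), 1 was called as deposited, 0 after quantile normalization, 1 with only the groups compared in the fit, 1 with the array set as a block and 0 within the larger array set. Within that set, 7 were called for genotype at 31 days against 14 (6 of the 14, and Tnxb), 1 of 7 for its change from 21 to 31 days (2 with the array set as a block) and 13 of 21 for its change from 21 to 43 days. For probucol in dKO hearts at 21 days (3 called), 1 was called as deposited, 1 after quantile normalization, 1 with only the groups compared, 1 with the array set as a block, 1 with the actin ratio as a covariate, 1 without the heart with conflicting ages, and 0 and 0 within the larger and smaller array sets. For HET hearts from 21 to 31 days (5 called), 8 were called as deposited, 10 after quantile normalization, 2 within the larger array set (Vcan of the 5, and Eln) and 0 within the smaller. From 21 to 43 days (5 called), 8 were called after quantile normalization, 2 with only the groups compared and 0 within the smaller array set. The fits within an array set and without the 5 arrays that stood apart were chosen after seeing the data, and fits within a set rest on fewer samples; other causes were not tested. The sign turned for Dcn as deposited and after quantile normalization, for genotype at 31 days (0.013 and 0.050) and 43 days (0.22 and 0.21), for the change from 21 to 43 days (0.44 and 0.36) and for probucol at 43 days (-0.34 and -0.30). As deposited it also turned for Mfap2 (0.32) and Lama2 (0.10) for genotype at 43 days, for Lama2 in the change from 21 to 31 days (0.0047) and for Lamb1 on probucol at 43 days (-0.29). With probe sets averaged per gene it turned for Lamb1 on probucol at 43 days (-0.33) and for Lama4 for genotype at 43 days (-0.11), probucol at 31 days (0.14) and the difference of probucol effects (0.017). Leaving out each HET probucol heart in turn left 0 calls for probucol in HET hearts and for genotype on probucol, and 13 to 17 for the difference of probucol effects. With the replicate number as a block, 16 members were higher and 6 lower for genotype at 43 days, 8 and 6 at 31 days, and 3 and 15 for probucol at 43 days; same-numbered hearts correlated in their deviations from the group means at -0.198 to 0.375, above 0.1 in 8 of 48 pairs, so the numbers do not pair the hearts. The signal floor held 5 arrays for Tnc, 6 for Fbn2, 3 for Fmod, 6 for Nid2 and 13 for Cd44, where a difference may be understated.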

Other observations

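Markers of further cell types, which the comparisons above do not use, were also counted between dKO and HET chow hearts at 43 days. Of 10 proliferation genes, 5 were higher and 0 lower. Of 5 measured erythroid genes, 3 were higher, and of 8 neutrophil genes, 2 were higher, with none lower in either list. Of 9 endothelial genes, 2 were higher and 0 lower. Lists with genes called lower were fat (4 of 5 lower), T and B cells (3 of 8), smooth muscle and pericytes (2 of 9), cartilage and valve (2 of 6) and Schwann cells and nerve (2 of 3), each with none higher. Mesothelium had 1 higher and 1 lower of 5, and of 4 platelet genes none was called. Over all genes 15.3% were called higher and 26.0% lower in this comparison, by limma at an adjusted p under 0.05. Counts such as 2 of 9 or 2 of 6 lie near those shares, and lists this short do not show that a cell type differed. The calls are those after centring, and counts of these lists as deposited are not given.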
